A study of Mus musculus with 22 samples.

Results

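The genes described here turn back between the 2 steps of Myc-driven lymphoma in the mouse. Their mean log2 level in premalignant B cells differed from that in wild type B cells by at least 0.5, a 1.41-fold change, and their mean in lymphomas differed from the premalignant mean by at least 0.5 the opposite way. Of 6437 genes tested, 125 met this rule after named exclusions. In 52 of them the premalignant mean was above both other groups (peak genes) and in 73 it was below both (dip genes). Fkbp11, Nid1, Plk2, Prps2, Sdf2l1 and Apoe also met the rule and were left out by name, as immunoglobulin genes would have been, although 0 of those met it. The members were thus chosen by the group means of both steps, so these are given as values without a test. Only the difference between lymphomas and wild type cells, whose sign the rule does not fix, was tested. It is the sum of both steps and shares their arrays.

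The study hybridised RNA of mouse B cells to 22 Affymetrix MOE430A arrays, 1 array a sample. The groups are 4 arrays of wild type B220+ cells of the C57Bl/6 strain, 5 of premalignant B220+ lymphocytes of Eμ-Myc transgenic mice, and 13 of malignant Eμ-Myc lymphocytes from lymphomas of independent mice. The transgene drives Myc from an immunoglobulin heavy chain enhancer, so it acts in the B lineage. Wild type and premalignant mice were littermates aged 4 to 6 weeks, and the lymphomas carry the same age in the labels, which is not used here. Cells were taken from bone marrow or spleen with magnetic beads against B220 or IgM. Which tissue an array came from is not stated in the sources read here, so tissue and group cannot be told apart. The labels do not say that wild type and premalignant replicates were separate mice, and p-values then measure only the spread between these samples.

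Myc itself stood at log2 7.04 ± 0.27 in wild type, 9.97 ± 0.26 in premalignant and 9.59 ± 0.59 in malignant arrays (SD, n = 4, 5 and 13). The B cell marker Cd79a averaged log2 13.02 in wild type, 12.53 in premalignant and 11.50 in malignant arrays. Ms4a1, which encodes CD20, averaged 12.03 in wild type, 11.82 in premalignant and 8.04 in malignant arrays. Pax5 was below log2 4 on all 22 arrays. In bulk RNA of this kind fewer cells of a type and less RNA per cell cannot be told apart. RNA controls differed too: the excess of the 3′ over the 5′ probe set of beta-actin was 0.64 to 0.86 log2 units in wild type, 0.58 to 0.81 in premalignant and 1.29 to 2.49 in malignant arrays. The part of this difference in the results below was not tested. The arrays least correlated with the others of their group were wild type replicate 2 among the wild type arrays (mean r 0.956 over genes) and premalignant replicate 1 among the premalignant arrays (0.938), and several values below rest on them. Lymphomas correlated with each other at 0.913 to 0.941.

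Eμ-Myc mice pass through a phase of expanded, dividing B cells before a clone grows out as lymphoma. Immediate early genes such as Fos encode short-lived transcription factors that stimulated or stressed cells make within minutes, without new protein synthesis. Dual specificity phosphatases such as Dusp1, and the stress phosphatase subunit encoded by Ppp1r15a, are induced with them and limit the response.

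The gene with the largest smaller step, Fosb, and 3 other peak genes of this immediate early and stress group are shown by their RefSeq promoter windows, 250 bases before to 50 bases after the annotated start, on build GRCm38.p6. They are Fosb at chr7:19309996-19310295 on the minus strand, Fos at chr12:85473640-85473939 on the plus strand, Dusp1 at chr17:26508423-26508722 on the minus strand and Ppp1r15a at chr7:45526219-45526518 on the minus strand. Capitals mark TGACGT or ACGTCA, which are the core of the cyclic AMP response element (CRE) on either strand, and TGACGTCA is the whole element. The Fos window holds 1 such stretch, 66 bases before the start. The Dusp1 window holds 2, at 191 and 143 bases before the start, and the second is a whole element. The Ppp1r15a window holds 1 whole element 12 bases before the start, and the Fosb window holds none.
Fosb: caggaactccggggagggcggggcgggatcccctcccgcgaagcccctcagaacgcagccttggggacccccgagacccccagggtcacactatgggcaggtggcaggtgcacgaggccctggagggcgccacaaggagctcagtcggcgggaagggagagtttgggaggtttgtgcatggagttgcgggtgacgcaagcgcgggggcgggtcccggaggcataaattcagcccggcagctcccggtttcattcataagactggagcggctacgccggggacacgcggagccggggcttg
Fos: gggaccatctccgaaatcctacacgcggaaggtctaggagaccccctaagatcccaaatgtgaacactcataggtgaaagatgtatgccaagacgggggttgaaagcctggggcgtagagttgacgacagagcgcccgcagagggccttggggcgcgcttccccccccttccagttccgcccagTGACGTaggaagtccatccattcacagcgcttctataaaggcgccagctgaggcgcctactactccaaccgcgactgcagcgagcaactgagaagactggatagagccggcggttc
Dusp1: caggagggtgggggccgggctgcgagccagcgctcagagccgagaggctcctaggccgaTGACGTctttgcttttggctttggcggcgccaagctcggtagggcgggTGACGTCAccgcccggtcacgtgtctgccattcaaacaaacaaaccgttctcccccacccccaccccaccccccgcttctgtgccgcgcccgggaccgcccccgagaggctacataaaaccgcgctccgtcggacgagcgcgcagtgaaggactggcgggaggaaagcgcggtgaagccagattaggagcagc
Ppp1r15a: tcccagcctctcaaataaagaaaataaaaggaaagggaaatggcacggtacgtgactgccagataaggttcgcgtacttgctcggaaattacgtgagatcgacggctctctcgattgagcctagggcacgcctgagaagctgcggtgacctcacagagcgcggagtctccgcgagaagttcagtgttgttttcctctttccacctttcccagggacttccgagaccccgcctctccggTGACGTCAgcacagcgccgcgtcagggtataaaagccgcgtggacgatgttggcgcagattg

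The CRE core was no more frequent in the peak genes than in all tested genes. The core TGACGT stood in the windows of 4 of 40 peak genes with a window (10%) and of 8 of 61 dip genes (13.1%), beside 14.3% of 5332 tested genes. The whole element TGACGTCA stood in 5%, 1.64% and 3.56% of the same sets. The E-box CACGTG, to which Myc binds with Max, stood in 17.5% of peak genes and 9.84% of dip genes, beside 12.9% of all. The CCAAT box stood in 50%, 44.3% and 43.6% of the same sets, and the ETS core CCGGAAG in 15%, 23% and 24.3%. The CArG box, the site of serum response factor and chosen after the windows were seen, stood in 2.5%, 1.64% and 1.56%. All motifs were sought on both strands. TGACGT lies within TGACGTCA. A match is a description of letters and not of binding.

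Reversal was uncommon among genes that moved. Before the named exclusions, 57 genes (0.886% of those tested) were higher in premalignant cells and then lower in lymphomas by the rule's steps, and 74 (1.15%) were lower and then higher. By the same steps 527 genes (8.19%) were higher at both and 497 (7.72%) were lower at both. The smaller of the 2 steps had a median of 0.65 log2 units in the peak genes (range 0.51 to 2.43) and of 0.59 in the dip genes (range 0.50 to 0.95). A smaller step of at least 1 was reached by 8 peak genes and 0 dip genes. The 8 were Fosb, Wfdc21, Fos, Uchl1, Dusp1, Klf4, Capn5 and S100a9. The smaller step was under 0.6 in 20 peak and 39 dip genes, so many members lie close to the limit. Just inside it were Cops6 (0.51), Rpia (0.51) and Mxd3 (0.51) among the peak genes and Rap1gds1, Ctdp1 and Dusp7 (0.50 each) among the dip genes. Just outside were Bsg (0.50), Adam19 (0.49) and Rfc3 (0.49), and Polr2a, Dlg1 and Pld3 (0.50 each).

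**Figure D1:**
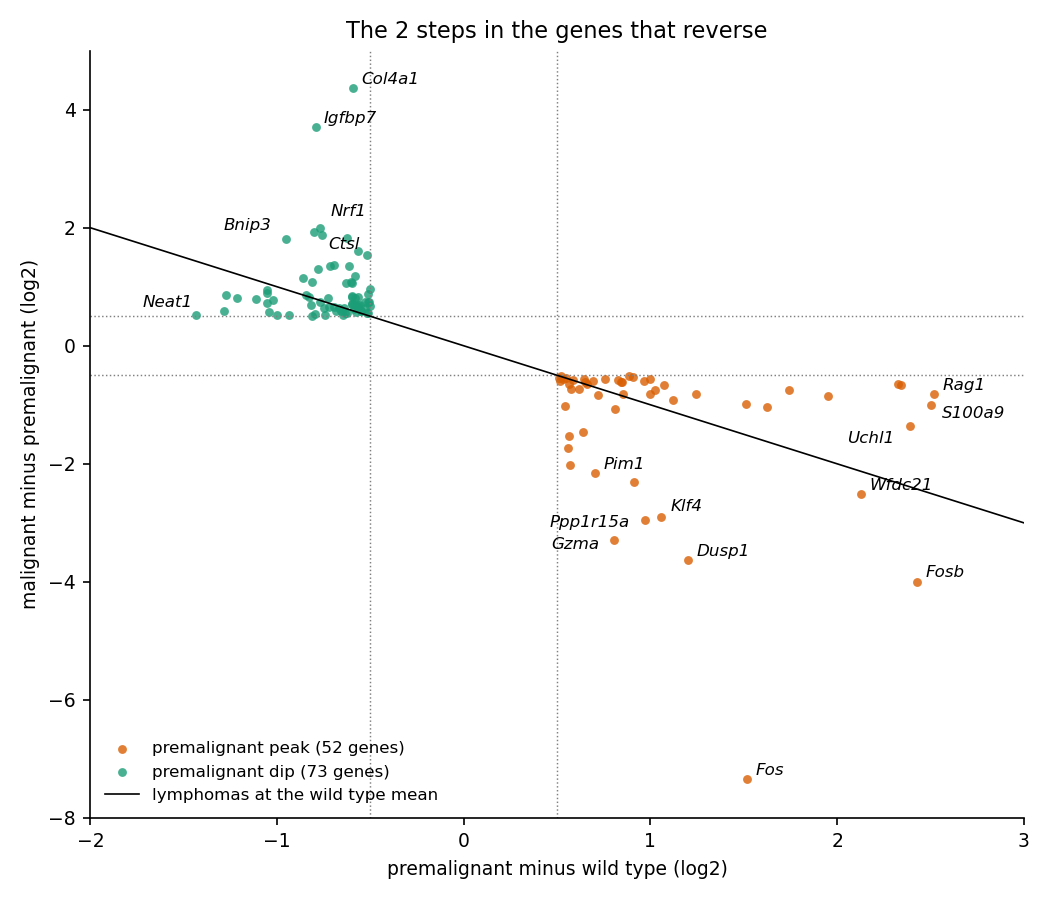
Each point is 1 of the 125 genes, with the premalignant minus wild type difference of mean log2 intensity on the horizontal axis and the malignant minus premalignant difference on the vertical axis. Dotted lines mark the limits of 0.5 and the solid line marks genes whose lymphoma mean equals the wild type mean, and Fos lies farthest below it while Col4a1 lies farthest above.

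The groups overlapped in most members. The premalignant arrays all lay above all wild type arrays in 21 of 52 peak genes, where 11.2% of all tested genes did so, and below in 28 of 73 dip genes, where 13% did. Every lymphoma lay below every premalignant array in 11 peak genes (5.93% of all genes) and above in 18 dip genes (6.28%). These contrasts chose the members, and nothing is read from the counts. The premalignant arrays stood apart from both other groups at the same time in 2 peak genes, Wfdc21 and Pim1, where 0.0311% of all genes lay above both. They did so in 8 dip genes, where 0.202% of all genes lay below both. The 8 were Khdc4, Ubr4, Chd8, Nrf1, AU020206, Edc4, Brpf1 and Lsm14b.

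Immediate early and stress genes were among the peak genes with the largest second steps, and in lymphomas they lay below wild type and not only below the premalignant level. Fosb encodes a subunit of the AP-1 transcription factor. Its log2 intensity was 3.89, 6.26, 2.21 and 2.49 in wild type arrays, 8.46, 4.71, 5.17, 5.79 and 6.57 in premalignant arrays, and between 2.06 and 2.33 (median 2.13) in 13 lymphomas. All lymphomas were lower than all premalignant arrays, while wild type replicate 2 lay within the premalignant range. The premalignant mean was at least 4.41-fold above both the wild type and the lymphoma mean, which lie below log2 4, the level under which a probe set counts as dim. The first step of 2.43 log2 units was 1.85 without premalignant replicate 1 and 3.28 without wild type replicate 2. Lymphomas were called lower than wild type for Fosb (limma adjusted p = 0.0044), but not with arrays centred on the hybridisation spikes (adjusted p = 0.064).

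Fos encodes the best known partner of Jun in AP-1. It stood at 9.24, 10.22, 7.79 and 7.98 in wild type arrays, 10.97, 8.87, 10.24, 10.45 and 11.11 in premalignant arrays, and 2.55 to 3.42 (median 3.03) in lymphomas. Wild type and premalignant arrays overlapped, and every lymphoma was below log2 4. The premalignant mean was 2.86-fold above wild type, and the lymphoma mean was at least 80.3-fold below premalignant and at least 28.0-fold below wild type (log2 difference -5.83 ± 0.32 SE, limma adjusted p = 4.4e-11).

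Dusp1 encodes a phosphatase that switches off MAP kinases. It stood at 7.46, 7.98, 4.64 and 5.51 in wild type arrays, 8.06, 6.27, 7.32, 7.38 and 8.97 in premalignant arrays, and 3.11 to 5.05 (median 3.74) in lymphomas. The 2 lowest wild type arrays lay below all premalignant arrays and the others did not. Klf4, which encodes a zinc finger transcription factor linked to quiescence of B cells, stood at 5.76, 5.86, 3.34 and 4.17 in wild type arrays, 6.46, 4.84, 5.77, 4.89 and 7.22 in premalignant arrays, and 2.80 to 3.03 (median 2.93) in lymphomas. Lymphomas were at least 5.27-fold lower than wild type for Dusp1 (adjusted p = 0.00012) and at least 1.72-fold lower for Klf4 (adjusted p = 3.0e-05). The SD of Klf4 was 1.23 in wild type and 0.06 in malignant arrays. The test takes 1 variance over both groups, so its p rests mostly on the narrow spread of lymphomas below log2 4.

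Ppp1r15a encodes GADD34, which lets protein synthesis resume after stress. Its values were 5.72, 7.01, 4.46 and 5.03 in wild type arrays, 8.03, 6.62, 5.39, 5.76 and 6.82 in premalignant arrays, and 3.39 to 3.81 (median 3.50) in lymphomas. Only premalignant replicate 1 exceeded every wild type array. In Fosb, Fos, Dusp1, Klf4 and Ppp1r15a, wild type replicates 1 and 2 were above wild type replicates 3 and 4, so the size of the first step depends on which wild type arrays are taken. Lymphomas were at least 2.94-fold lower than wild type for Ppp1r15a (adjusted p = 5.5e-06).

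A fixed list of 30 AP-1 and immediate early genes had 21 members tested. Fosb, Fos, Dusp1 and Klf4 were its only peak genes under the rule, and it held 0 dip genes. Of the 21, 16 were lower and 0 higher in lymphomas than in wild type cells by the limma test, where 29.7% of all tested genes were lower and 31.8% higher. The list's median difference was -0.10 between premalignant and wild type cells, -1.90 between lymphomas and premalignant cells and -2.31 between lymphomas and wild type cells, beside -0.05, 0.09 and 0.04 for all genes.

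**Figure D2:**
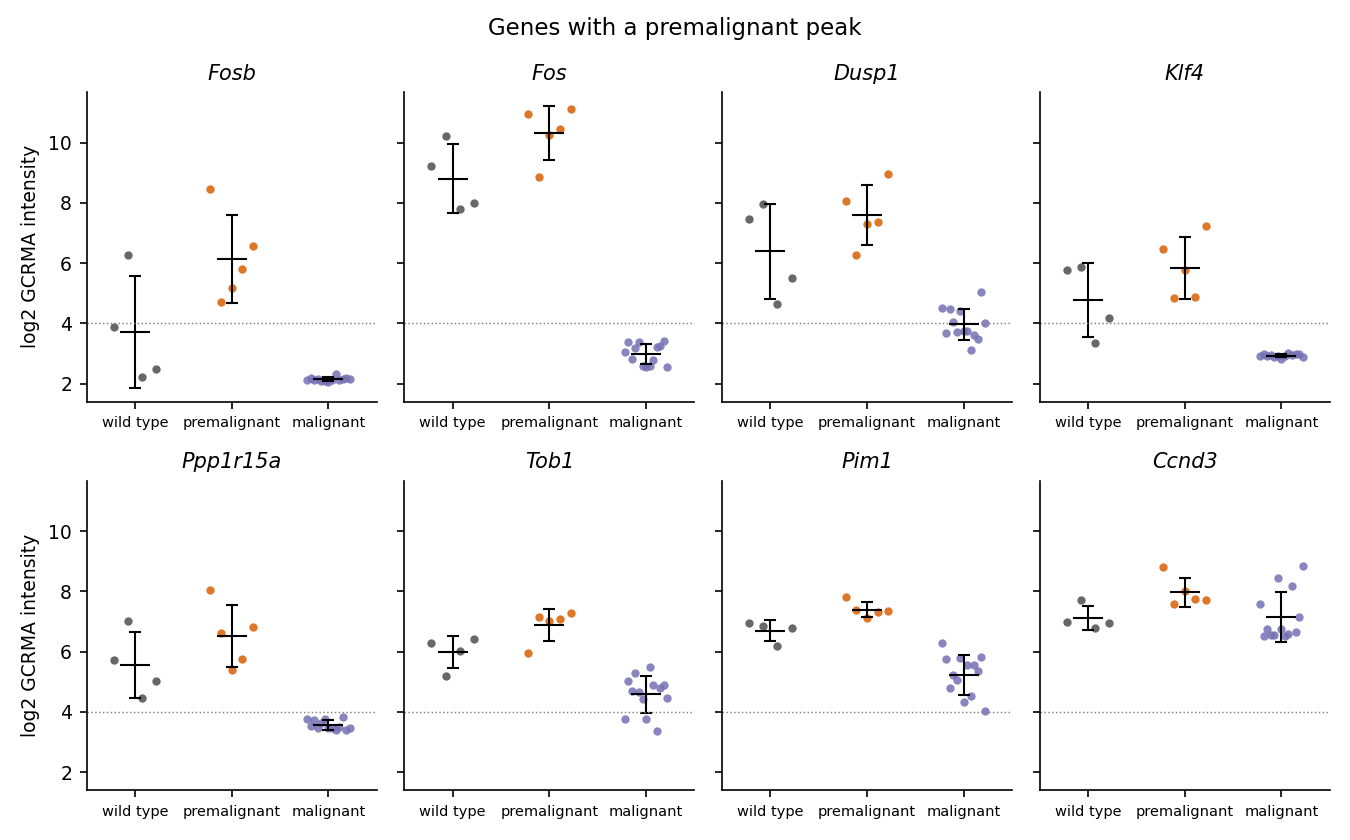
Log2 GCRMA intensity of 8 peak genes in 4 wild type, 5 premalignant and 13 malignant arrays. Points are arrays, bars are the mean ± SD and the dotted line is the filter level of log2 4. The lymphoma points of Fosb, Fos, Klf4 and Ppp1r15a lie below that line, while those of Ccnd3 spread from 6.50 to 8.84.

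Other regulators of growth spread less among the wild type and premalignant arrays than the immediate early genes above, while Pim1 and Tob1 spread more among lymphomas. Pim1 encodes a serine/threonine kinase that cooperates with Myc in lymphoma. It stood at 6.96, 6.84, 6.19 and 6.78 in wild type arrays, 7.81, 7.37, 7.12, 7.31 and 7.36 in premalignant arrays, and 4.02 to 6.29 (median 5.37) in lymphomas. Its groups at both steps did not overlap. Lymphomas were 2.74-fold below wild type (adjusted p = 0.00082). Tob1, an antiproliferative gene of the BTG family, averaged 5.98 ± 0.54, 6.89 ± 0.54 and 4.58 ± 0.62 in wild type, premalignant and malignant arrays (SD). Its lymphoma level was 2.65-fold below wild type (adjusted p = 0.001). Premalignant replicate 1 was the low premalignant array, at 5.95.

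Rgs1 encodes a regulator that shortens G protein signalling downstream of chemokine receptors. It stood at 3.64 ± 0.17 in wild type, 4.45 ± 0.65 in premalignant and 3.37 ± 0.42 in malignant arrays, and only the premalignant mean was above log2 4. Its lymphoma level was not called different from wild type (log2 difference -0.27 ± 0.21 SE, adjusted p = 0.28). Myadm, a membrane protein gene, averaged 7.39 ± 0.42 in wild type, 7.96 ± 0.45 in premalignant and 5.95 ± 0.53 in malignant arrays, and lymphomas were 2.72-fold below wild type (adjusted p = 0.00017). A second probe set of Myadm met the rule as well, with steps of 0.82 and -2.52.

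Genes of the cell cycle were among the peak genes in small number. Ccnd3 encodes cyclin D3, which dividing precursor B cells require. It stood at 7.00, 7.72, 6.78 and 6.96 in wild type arrays, 8.80, 7.58, 8.00, 7.76 and 7.70 in premalignant arrays, and 6.50 to 8.84 (median 6.76) in lymphomas. Most lymphomas lay within or below the wild type range, and malignant replicates 6, 10 and 13 were at 8.44, 8.19 and 8.84. The lymphoma mean was 1.03-fold that of wild type (adjusted p = 0.93). Cdkn2c encodes the CDK4 and CDK6 inhibitor p18INK4c. It averaged 5.78 ± 0.83 in wild type, 6.78 ± 0.72 in premalignant and 6.21 ± 0.61 in malignant arrays, and wild type replicate 2 (7.01) and premalignant replicate 1 (8.02) were each the high array of their group.

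Fzr1, which encodes the APC/C activator Cdh1, averaged 6.04 ± 0.43 in wild type, 6.68 ± 0.38 in premalignant and 6.12 ± 0.35 in malignant arrays. Fanca of the Fanconi anaemia repair complex averaged 6.25 ± 0.47 in wild type, 7.09 ± 0.20 in premalignant and 6.48 ± 0.39 in malignant arrays, and the centrosomal gene Cetn3 7.51 ± 0.50 in wild type, 8.10 ± 0.66 in premalignant and 7.52 ± 0.53 in malignant arrays. Mxd3, a Max partner that opposes Myc at E-boxes, averaged 4.71 ± 0.37 in wild type, 5.22 ± 0.34 in premalignant and 4.63 ± 0.25 in malignant arrays. The lymphoma means of all 4 genes lay within 0.25 log2 units of wild type, and none was called different. Of the list of cyclins, CDK inhibitors and growth arrest genes, 20 were tested. Ccnd3, Cdkn2c and Tob1 were its peak genes, and 5 of the 20 were higher and 10 lower in lymphomas than in wild type cells, beside the 31.8% and 29.7% of all tested genes given above. The list's median difference between lymphomas and wild type cells was -0.88, beside 0.04 for all genes.

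The recombinase gene Rag1, which cuts immunoglobulin loci in precursor B cells, had the largest first step. It stood at 3.41, 3.83, 3.57 and 3.44 in wild type arrays, all below log2 4. Premalignant arrays were at 6.01, 5.77, 6.57, 6.06 and 5.99, with no overlap. The lymphomas did not form a single level. Malignant replicates 3, 6, 7 and 10 were at 8.65, 8.68, 8.97 and 8.09, replicate 2 was at 5.93, replicate 12 was at 4.40, and the other 7 lay between 3.09 and 3.78. The lower lymphoma mean of 5.26 ± 2.44 (SD, n = 13) therefore joins lymphomas above and below the premalignant range, and the lymphoma level was not called different from wild type (adjusted p = 0.2).

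**Figure D3:**
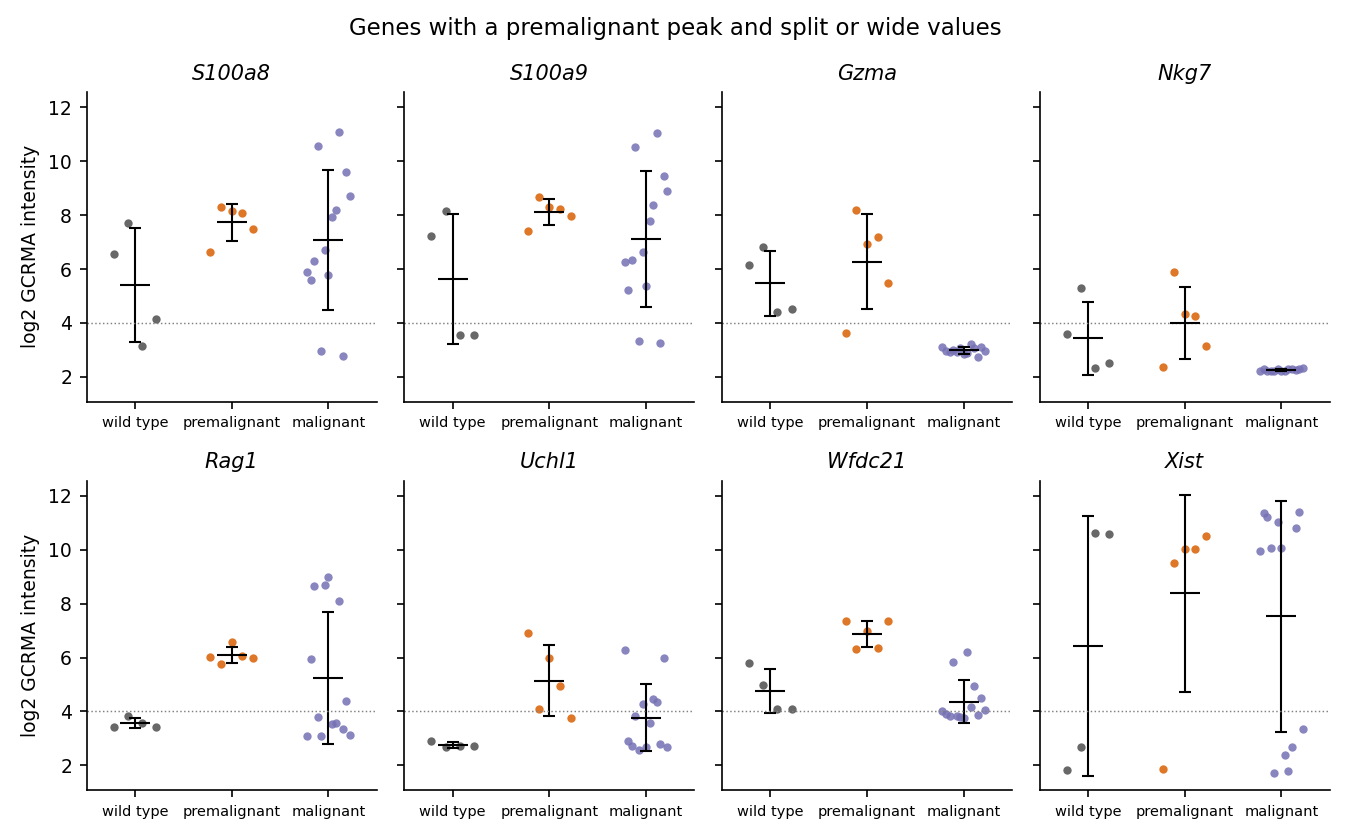
Log2 GCRMA intensity of 8 peak genes whose arrays split or spread within a group, in 4 wild type, 5 premalignant and 13 malignant arrays. Points are arrays, bars are the mean ± SD and the dotted line is log2 4. The lymphomas reach from 2.79 to 11.09 for S100a8, while every lymphoma lies below log2 4 for Gzma and Nkg7.

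Some peak genes are markers of cells other than B cells. S100a8 and S100a9 encode the subunits of calprotectin, abundant in neutrophils. S100a8 stood at 6.56, 7.72, 3.15 and 4.16 in wild type arrays, 6.65, 8.31, 8.16, 8.09 and 7.50 in premalignant arrays, and 2.79 to 11.09 (median 6.70) in lymphomas. Wild type replicate 2 lay within the premalignant range, replicate 1 just below it and replicates 3 and 4 far below, and lymphomas lay on both sides of it. S100a9 ran alongside, at 7.22, 8.14, 3.56 and 3.55 in wild type arrays, 7.40, 8.68, 8.32, 8.24 and 7.97 in premalignant arrays, and 3.25 to 11.05 (median 6.63) in lymphomas. Neither was called different between lymphomas and wild type cells (adjusted p = 0.27 and 0.32). Of 21 neutrophil markers 17 were on the array. Their summed intensity ran from 146 to 721 in wild type, 526 to 1027 in premalignant and 129 to 6515 in malignant arrays. This sum includes S100a8 and S100a9 and so is not a separate measure. Ngp averaged log2 5.21 in wild type, 6.70 in premalignant and 6.45 in malignant arrays, and Mpo averaged 2.56, 2.56 and 3.60. Mmp8, Csf3r, Cxcr2, Itgam and Ms4a3 were below log2 4 on all arrays. The part of these cells in the levels of S100a8 and S100a9 was not tested. Wfdc21, which encodes a whey acidic protein family member, stood at 5.79, 4.99, 4.09 and 4.11 in wild type arrays, 7.34, 6.33, 6.98, 6.37 and 7.34 in premalignant arrays, and 3.75 to 6.19 (median 4.03) in lymphomas, without overlap at either step.

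Gzma, a serine protease of cytotoxic granules, and Nkg7, a granule membrane protein, are markers of natural killer cells. Gzma stood at 6.16, 6.82, 4.40 and 4.53 in wild type arrays, 3.62, 8.19, 6.93, 7.17 and 5.48 in premalignant arrays, and 2.72 to 3.21 (median 2.96) in lymphomas. Nkg7 stood at 3.60, 5.30, 2.34 and 2.52 in wild type arrays, 2.35, 5.87, 4.34, 4.27 and 3.14 in premalignant arrays, and 2.21 to 2.32 (median 2.24) in lymphomas. In both genes premalignant replicate 1 was the lowest premalignant array, and all lymphomas were below log2 4. The first step of Gzma shrank to 0.33 and that of Nkg7 to 0.09 without premalignant replicate 2, which left both genes outside the rule. Lymphomas were at least 2.78-fold below wild type for Gzma (adjusted p = 8.4e-07). For Nkg7 (adjusted p = 0.0042) no fold is given, since both means lie below log2 4, and with arrays centred on the hybridisation spikes it was not called (adjusted p = 0.14). Of 15 natural killer markers 14 were on the array, with summed intensities of 121 to 269 in wild type, 126 to 537 in premalignant and 85.1 to 151 in malignant arrays. These sums include Gzma and Nkg7 and so are not a separate measure. Ncr1, Klrg1, Gzmb, Prf1, Eomes and Fasl were below log2 4 on all arrays. The part of these cells was not tested.

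Xist, the long RNA that coats the inactive X chromosome of female cells, split within every group. It was at 1.85 and 2.68 in wild type replicates 1 and 2 but at 10.63 and 10.56 in replicates 3 and 4. It was at 1.85 in premalignant replicate 1 and at 9.51 to 10.50 in the others. Malignant replicates 5, 8, 9, 10 and 13 lay between 1.73 and 3.37, and the other 8 between 9.96 and 11.41. Its difference of group means thus counts arrays with and without the RNA, and by group medians the second step was 0.04. The wild type arrays with low Xist, replicates 1 and 2, are those with the higher Fosb, Fos, Dusp1, Klf4, S100a8, Gzma and Igfbp7 values. Premalignant replicate 1, also low in Xist, was the highest premalignant array for Fosb (8.46) and Igfbp7 (6.45). For Fos, Dusp1 and Klf4 it lay below replicate 5 and above the others. It was the lowest premalignant array for S100a8 (6.65) and Gzma (3.62). The tissue of these arrays, bone marrow or spleen, is not known either. Whether the sexes of the mice or the tissues bear on these genes and their first steps was not tested. LOC664787 rested on premalignant replicate 2 alone, which was at 6.23, while the other premalignant arrays lay between 2.38 and 2.63.

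Some other peak genes have roles in protein turnover and the cytoskeleton, for which there was no fixed list. Uchl1, a ubiquitin hydrolase gene best known in neurons, stood at 2.90, 2.68, 2.71 and 2.72 in wild type arrays, 6.92, 4.10, 5.98, 4.93 and 3.77 in premalignant arrays, and 2.57 to 6.28 (median 3.56) in lymphomas. Every premalignant array was above every wild type array, while lymphomas ran from the wild type level into the premalignant range. The deubiquitinase gene Usp3 averaged 5.55 ± 0.28 in wild type, 6.27 ± 0.22 in premalignant and 5.44 ± 0.62 in malignant arrays, and Stambpl1 5.83 ± 0.58 in wild type, 6.86 ± 0.52 in premalignant and 6.11 ± 0.86 in malignant arrays. The proteasome subunit gene Psmb2 averaged 7.72 ± 0.31 in wild type, 8.34 ± 0.52 in premalignant and 7.60 ± 0.23 in malignant arrays, and Psme4, which encodes the activator PA200, 7.03 ± 0.08 in wild type, 7.79 ± 0.28 in premalignant and 7.24 ± 0.52 in malignant arrays. Cops6 of the COP9 signalosome averaged 6.94 ± 0.24 in wild type, 7.46 ± 0.52 in premalignant and 6.95 ± 0.54 in malignant arrays. None of these 6 genes was called different between lymphomas and wild type cells.

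Vim, the intermediate filament vimentin, was among the brightest members. It stood at 10.20, 10.06, 9.72 and 9.73 in wild type arrays, 11.27, 11.05, 11.04, 11.02 and 10.62 in premalignant arrays, and 9.26 to 10.96 (median 10.43) in lymphomas. Premalignant arrays were 2.10-fold above wild type with no overlap, and lymphomas reached the premalignant range. Tubb2b, a beta-tubulin gene, averaged 4.64 ± 0.26 in wild type, 5.64 ± 0.34 in premalignant and 4.82 ± 0.53 in malignant arrays. The PDZ and LIM protein gene Pdlim1 averaged 7.11 ± 0.33 in wild type, 8.85 ± 0.37 in premalignant and 8.11 ± 0.83 in malignant arrays, and malignant replicate 13 was at 5.48 while the others were at or above 7.86. Capn5, a calpain protease gene, averaged 2.78 ± 0.25 in wild type, 4.40 ± 0.18 in premalignant and 3.36 ± 0.85 in malignant arrays, so that only premalignant arrays stood above log2 4 on average.

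Among metabolic enzymes, Pafah1b3, a catalytic subunit of platelet-activating factor acetylhydrolase, stood at 8.02, 7.87, 6.69 and 7.22 in wild type arrays, 9.62, 8.85, 9.28, 8.61 and 8.45 in premalignant arrays, and 6.24 to 9.01 (median 8.14) in lymphomas. Premalignant arrays were 2.85-fold above wild type, and lymphomas ran through both ranges. Glo1, which detoxifies methylglyoxal, averaged 6.28 ± 0.33 in wild type, 7.25 ± 0.26 in premalignant and 6.66 ± 0.57 in malignant arrays. Its other 2 probe sets were higher in lymphomas than in premalignant cells, by 0.52 and 0.47, and so did not turn. Rpia of the pentose phosphate pathway averaged 7.97 ± 0.29 in wild type, 8.48 ± 0.12 in premalignant and 7.94 ± 0.44 in malignant arrays, the heme synthesis gene Alad 5.50 ± 0.22 in wild type, 6.16 ± 0.75 in premalignant and 5.50 ± 0.74 in malignant arrays, and Ssr4 of the translocon complex 8.47 ± 0.36 in wild type, 9.02 ± 0.14 in premalignant and 8.47 ± 0.40 in malignant arrays. The lymphoma means of these last 3 lay within 0.25 log2 units of wild type. The other probe set of Ssr4 moved by 0.01 and 0.10 and so did not turn.

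The dip genes had smaller steps. Some with roles in chromatin and transcription are described here as a group that was formed after their values were seen. Of these, Chd8, Chd7, Nrf1 and Ctdp1 were named by rule and the others were picked after their values were seen. The fixed list of chromatin, DNA methylation and Polycomb genes held 0 dip and 0 peak genes among 24 tested. Chd8, a chromatin remodeller gene, stood at 7.71, 8.01, 7.90 and 7.88 in wild type arrays, 7.06, 6.72, 7.16, 7.28 and 7.08 in premalignant arrays, and 7.62 to 8.95 (median 8.09) in lymphomas. All premalignant arrays were below all others. Its relative Chd7 averaged 5.51 ± 0.33 in wild type, 4.40 ± 0.10 in premalignant and 5.19 ± 0.55 in malignant arrays. Nrf1, nuclear respiratory factor 1, which activates genes of mitochondrial function, was dimmer, at 4.06, 3.93, 3.61 and 4.26 in wild type arrays, 3.30, 3.36, 3.23, 3.26 and 2.82 in premalignant arrays, and 4.60 to 5.71 (median 5.24) in lymphomas. All lymphomas were above all wild type arrays (log2 difference 1.22 ± 0.19 SE, limma adjusted p = 1.9e-05). However, this probe set passed the filter only through lymphomas, with 2 wild type, 0 premalignant and 13 malignant arrays above log2 4. That favours a higher lymphoma mean, so the call is given as description only. The other probe set of Nrf1 averaged 4.54 in wild type, 4.55 in premalignant and 4.43 in malignant arrays. It moved by 0.01 and -0.12 and did not turn.

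Spen, a transcriptional corepressor gene, averaged 5.77 ± 0.28 in wild type, 5.15 ± 0.60 in premalignant and 6.51 ± 0.21 in malignant arrays, and lymphomas were 1.67-fold above wild type (adjusted p = 0.00017). The acetyltransferase gene Crebbp averaged 5.56 ± 0.30 in wild type, 5.05 ± 0.21 in premalignant and 5.60 ± 0.27 in malignant arrays, and Brpf1, a scaffold of another acetyltransferase complex, 6.85 ± 0.23 in wild type, 6.29 ± 0.25 in premalignant and 7.12 ± 0.40 in malignant arrays. Ccnt1, the cyclin of the elongation factor P-TEFb, averaged 7.10 ± 0.26 in wild type, 6.50 ± 0.32 in premalignant and 7.35 ± 0.24 in malignant arrays, and Ctdp1, a phosphatase of the RNA polymerase II tail, 6.74 ± 0.33 in wild type, 6.24 ± 0.25 in premalignant and 7.21 ± 0.27 in malignant arrays. The splicing genes Son and Clk2 averaged 9.22 ± 0.12 in wild type, 8.57 ± 0.19 in premalignant and 9.16 ± 0.29 in malignant arrays, and 6.47 ± 0.19 in wild type, 5.90 ± 0.30 in premalignant and 6.59 ± 0.51 in malignant arrays. For Son, 2 of 5 other probe sets moved in the same directions and 0 met the rule. Rest, the repressor of neuronal genes, averaged 7.16 ± 0.52 in wild type, 6.22 ± 0.43 in premalignant and 6.74 ± 0.39 in malignant arrays.

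Bnip3, a mitophagy gene induced by hypoxia, had the largest smaller step of the dip genes. It stood at 4.97, 4.53, 4.35 and 3.31 in wild type arrays, 3.43, 3.26, 3.45, 3.27 and 3.28 in premalignant arrays, and 3.79 to 5.84 (median 5.27) in lymphomas. Wild type replicate 4 was as low as the premalignant arrays, all of which lay below log2 4. Lymphomas were 1.82-fold above wild type (adjusted p = 0.019), and without wild type replicate 4 the adjusted p was 0.14. Bnip3 passed the filter only through lymphomas, with 3 wild type, 0 premalignant and 12 malignant arrays above log2 4. Ndrg1, another hypoxia-induced gene, averaged 4.10 ± 0.52 in wild type, 3.32 ± 0.33 in premalignant and 4.63 ± 0.74 in malignant arrays (adjusted p = 0.23).

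The glucose transporter gene Slc2a3 stood at 7.38, 7.92, 6.78 and 7.07 in wild type arrays, 6.72, 6.79, 6.61, 6.48 and 6.25 in premalignant arrays, and 7.40 to 8.44 (median 8.04) in lymphomas. Lymphomas were 1.56-fold above wild type (adjusted p = 0.014), but the adjusted p was 0.085 without wild type replicate 3 and 0.053 without replicate 4. Slc16a6, of the monocarboxylate transporter family, averaged 5.97 ± 0.28 in wild type, 5.28 ± 0.50 in premalignant and 6.64 ± 0.40 in malignant arrays and was 1.59-fold above wild type in lymphomas (adjusted p = 0.011). Slc3a2, the heavy chain of amino acid exchangers, averaged 7.82 ± 0.02 in wild type, 7.25 ± 0.38 in premalignant and 7.92 ± 0.16 in malignant arrays (adjusted p = 0.43). The choline transporter gene Slc44a1 averaged 5.88 ± 0.28 in wild type, 5.23 ± 0.79 in premalignant and 5.75 ± 1.09 in malignant arrays. Srebf1, the regulator of lipid synthesis, averaged 6.15 ± 0.48 in wild type, 5.57 ± 0.49 in premalignant and 6.13 ± 0.36 in malignant arrays, and Dgat1, which makes triglyceride, 5.43 ± 0.15 in wild type, 4.21 ± 0.39 in premalignant and 5.01 ± 0.38 in malignant arrays. Srebf1 was the only dip gene among 18 tested genes of the cholesterol and lipid synthesis list, which held 0 peak genes. Of 30 tested genes of the solute carrier list, Slc2a3, Slc3a2 and Slc44a1 were dip genes and 0 were peak genes, while 12 were higher and 5 lower in lymphomas than in wild type cells, where 31.8% of all tested genes were higher and 29.7% lower. The list's median difference between lymphomas and wild type cells was 0.37, beside 0.04 for all genes.

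**Figure D4:**
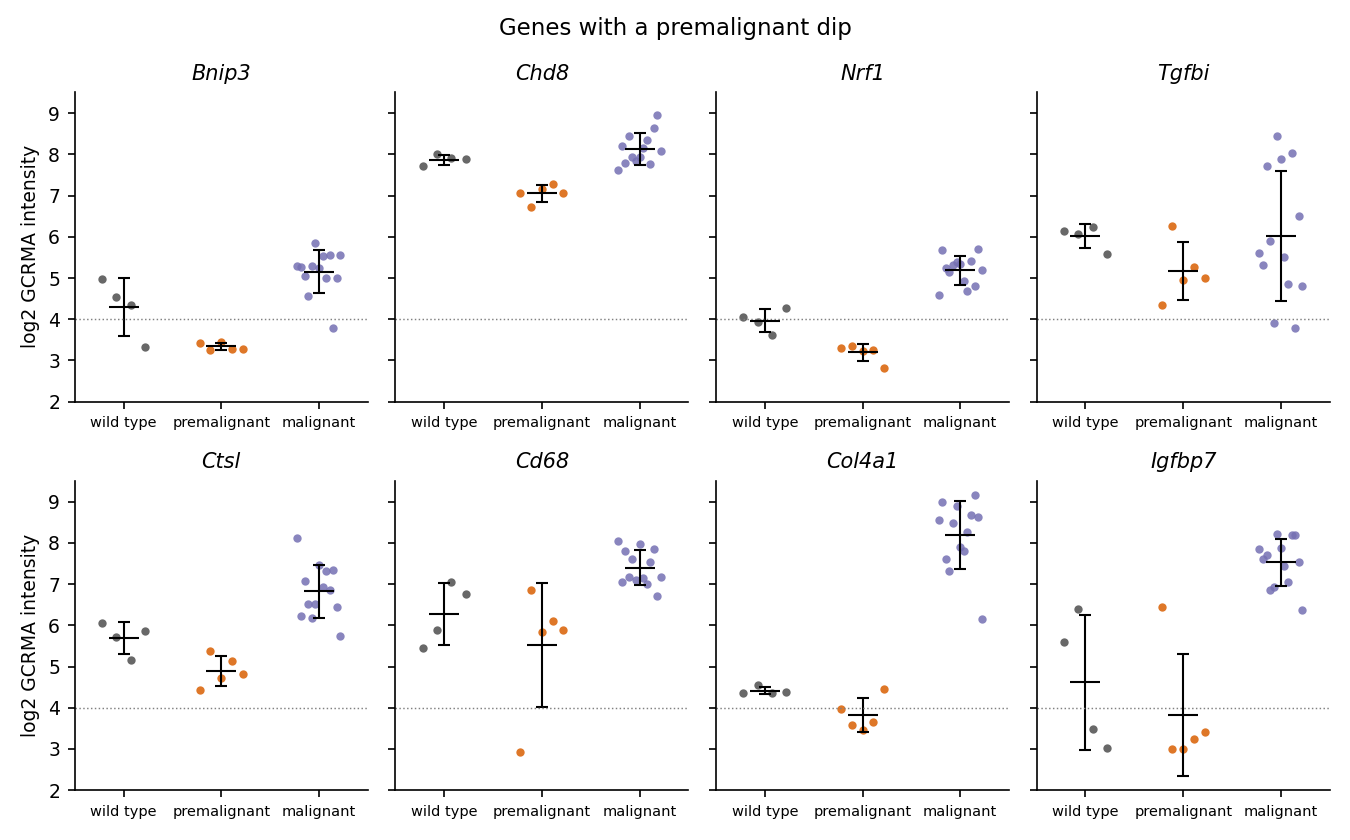
Log2 GCRMA intensity of 8 dip genes in 4 wild type, 5 premalignant and 13 malignant arrays. Points are arrays, bars are the mean ± SD and the dotted line is log2 4. The lymphomas of Col4a1 and Nrf1 lie above all wild type arrays, while those of Tgfbi run from 3.78 to 8.46 on both sides of them.

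The matrix gene Col4a1 and the lysosomal genes Ctsl and Cd68 were among the dip genes with the largest second steps. Ctsl, the lysosomal protease cathepsin L, stood at 6.06, 5.72, 5.15 and 5.85 in wild type arrays, 4.42, 5.38, 4.72, 5.13 and 4.82 in premalignant arrays, and 5.75 to 8.13 (median 6.85) in lymphomas. All lymphomas were above all premalignant arrays, and their mean was 2.19-fold above wild type (adjusted p = 0.0052). Cd68, a lysosomal glycoprotein that marks macrophages, stood at 5.44, 5.88, 7.04 and 6.76 in wild type arrays, 2.92, 6.86, 5.84, 6.11 and 5.88 in premalignant arrays, and 6.71 to 8.05 (median 7.17) in lymphomas. Its first step of -0.76 was -0.11 without premalignant replicate 1. Lymphomas were 2.17-fold above wild type for Cd68 (adjusted p = 0.0017). Of 22 macrophage markers 21 were on the array, with summed intensities of 2648 to 5750 in wild type, 1117 to 4835 in premalignant and 2359 to 14838 in malignant arrays. The sum includes Cd68, and the markers did not move together. Of 16 tested, 3 were called higher and 5 lower in lymphomas than in wild type cells, beside 31.8% and 29.7% of all tested genes. Their median difference was -0.25, beside 0.04 for all genes. Lyz1 averaged log2 8.23 in wild type and 10.89 in malignant arrays, while Csf1r averaged 9.10 and 7.04. Cd14, Fcgr1 and Msr1 were below log2 4 on all arrays. The part of these cells was not tested. The lysosomal acid phosphatase gene Acp2, the proton pump gene Tcirg1 and the mTORC1 anchor gene Lamtor3 averaged 5.05, 6.89 and 7.34 in wild type, 4.50, 6.34 and 6.75 in premalignant and 5.19, 6.93 and 7.38 in malignant arrays. The lymphoma means of these 3 genes lay within 0.25 log2 units of wild type. Of 27 tested genes of the lysosome and autophagy list, Ctsl was the only dip gene and 0 were peak genes. In lymphomas 8 of the 27 were called higher and 11 lower than in wild type cells. The list's median difference was -0.34 between premalignant and wild type cells and 0.04 between lymphomas and premalignant cells. Between lymphomas and wild type cells it was -0.14, so the list as a whole did not follow Ctsl.

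Col4a1, a collagen chain of basement membranes, had the largest second step of all dip genes. It stood at 4.36, 4.56, 4.37 and 4.38 in wild type arrays, 3.96, 3.57, 3.46, 3.66 and 4.46 in premalignant arrays, and 6.15 to 9.17 (median 8.49) in lymphomas. The first step of -0.59 sits at the dim end of the scale, while lymphomas were 13.7-fold above wild type with no overlap (log2 difference 3.77 ± 0.39 SE, adjusted p = 1.8e-07). The second probe set of Col4a1 was higher at both steps, by 0.57 and 2.00, and so did not dip. Igfbp7, a secreted protein gene of vessels and stroma, stood at 5.58, 6.39, 3.48 and 3.01 in wild type arrays, 6.45, 3.00, 2.99, 3.25 and 3.42 in premalignant arrays, and 6.36 to 8.22 (median 7.61) in lymphomas. Its wild type arrays split, its first step of -0.79 was -0.20 without wild type replicate 2, and lymphomas were 7.51-fold above wild type (adjusted p = 3.2e-05). Igfbp7 passed the filter only through lymphomas, with 2 wild type, 1 premalignant and 13 malignant arrays above log2 4. All 24 markers of stroma and endothelium were on the array. Their summed intensity, which includes Col4a1 and Igfbp7, ran from 388 to 480 in wild type, 253 to 340 in premalignant and 967 to 4999 in malignant arrays. Pecam1, also in this list, went the other way and averaged log2 7.69 in wild type, 6.62 in premalignant and 5.52 in malignant arrays. Most of the list did not dip: the median difference of its 14 tested genes was -0.05 between premalignant and wild type cells, as for all genes, and 3.40 between lymphomas and premalignant cells, beside 0.09 for all genes. Lum, Pdgfra, Cdh5, Tek, Emcn, Vwf and Thbs1 were below log2 4 on all arrays. The part of these cells was not tested.

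Tgfbi, a secreted matrix protein gene, returned to its wild type mean with a wide spread. It averaged 6.01 ± 0.29 in wild type, 5.17 ± 0.70 in premalignant and 6.02 ± 1.57 in malignant arrays, and lymphomas ran from 3.78 to 8.46. Itih5, which stabilises hyaluronan, averaged 3.65 ± 0.20 in wild type, 3.13 ± 0.23 in premalignant and 4.67 ± 1.01 in malignant arrays and was not called (adjusted p = 0.068). The endocytic receptor gene Lrp1 averaged 4.56 ± 0.65 in wild type, 3.99 ± 0.34 in premalignant and 5.59 ± 0.51 in malignant arrays and was 2.05-fold above wild type in lymphomas (adjusted p = 0.0046).

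Genes of cell shape, adhesion and traffic were also among the dip genes. Ctnna1, alpha-catenin, stood at 5.94, 5.51, 5.99 and 5.66 in wild type arrays, 4.68, 5.81, 4.93, 4.41 and 3.77 in premalignant arrays, and 3.67 to 7.42 (median 6.02) in lymphomas. Premalignant replicate 2 lay within the wild type range and the rest below it. Trio, a guanine nucleotide exchange factor gene, averaged 5.10 ± 0.65 in wild type, 4.05 ± 0.10 in premalignant and 4.95 ± 1.03 in malignant arrays, and Wasl, which drives actin branching, 4.89 ± 0.10 in wild type, 3.84 ± 0.33 in premalignant and 4.57 ± 0.39 in malignant arrays. A second probe set met the rule for Ctnna1 and Trio but for neither of the other 2 of Wasl. The kinase gene Tnk2 averaged 7.54 ± 0.23 in wild type, 6.52 ± 0.10 in premalignant and 7.29 ± 0.46 in malignant arrays, and Basp1, a membrane protein gene of growth cones, 4.34 ± 1.06 in wild type, 3.06 ± 0.30 in premalignant and 3.93 ± 1.09 in malignant arrays. The ubiquitin ligase gene Ubr4 stood at 6.46, 7.19, 6.24 and 6.24 in wild type arrays, 5.22, 5.97, 5.69, 5.74 and 5.89 in premalignant arrays, and 6.09 to 6.85 (median 6.60) in lymphomas, with all premalignant arrays below all others. The Golgi genes Golga2 and Trip11 and the tether gene Vps53 averaged 5.20, 6.33 and 6.32 in wild type, 4.44, 5.75 and 5.72 in premalignant and 5.08, 6.55 and 6.42 in malignant arrays. Neat1, the RNA scaffold of paraspeckles, had the deepest first step of the dip genes. It stood at 8.64, 8.44, 6.47 and 7.79 in wild type arrays, 6.60, 7.11, 6.11, 5.69 and 6.50 in premalignant arrays, and 5.90 to 7.98 (median 6.99) in lymphomas.

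Relative to wild type cells, lymphomas were called lower in 12 peak genes and higher in 2, and the other 38 were not called. They were called higher in 14 dip genes and lower in 3, and 56 were not called. In all, 14 of 52 peak genes and 17 of 73 dip genes differed, where 61.5% of all tested genes did. Steps of opposite sign partly cancel in this difference, so the rule itself favours a lower share of calls, and nothing is read from the contrast. A p that misses the threshold does not show that lymphomas had returned to the wild type level. Besides the genes above, the peak genes called lower were Plekhf2 (1.77-fold, adjusted p = 0.0048) and Trim35 (at least 1.48-fold, adjusted p = 0.044), and those called higher were Tifa (3.20-fold, adjusted p = 0.0035) and Pdlim1 (2.01-fold, adjusted p = 0.035). Tifa encodes an adaptor that links TRAF proteins to NF-κB, and averaged 5.70 ± 0.76 in wild type, 8.02 ± 0.75 in premalignant and 7.37 ± 0.88 in malignant arrays. Trim35 was not called without wild type replicate 3 or 4 (adjusted p = 0.11 and 0.18), and Pdlim1 was not called without wild type replicate 2, 3 or 4 (adjusted p = 0.059, 0.10 and 0.094). With spike centring Plekhf2 and Trim35 were not called (adjusted p = 0.24 and 0.29).

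The other dip genes called higher were Mphosph9 (2.31-fold, adjusted p = 0.0003), Camkk2 (1.53-fold, adjusted p = 0.04), AU020206 (1.38-fold, adjusted p = 0.017) and Ctdp1 (1.38-fold, adjusted p = 0.02). Camkk2 encodes a kinase upstream of AMPK. It was not called without wild type replicate 3 or 4 (adjusted p = 0.19 and 0.15), AU020206 not without replicate 1 or 3 (0.063 and 0.079), and Ctdp1 not without replicate 2 or 3 (0.089 and 0.074). The 3 called lower were Birc2, an inhibitor of apoptosis gene of the NF-κB pathway (1.39-fold, adjusted p = 0.045), Trim39 (1.62-fold, adjusted p = 0.036) and Neat1 (1.88-fold, adjusted p = 0.033). Birc2 was not called without any 1 of the 4 wild type arrays (0.054 to 0.18). Trim39 was not called without replicate 1, 2 or 4 (0.10, 0.12 and 0.056), nor Neat1 without the same arrays (0.16, 0.14 and 0.063). With spike centring none of these 3 was called (0.82 for Birc2, 0.48 for Trim39 and 0.34 for Neat1).

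**Figure D5:**
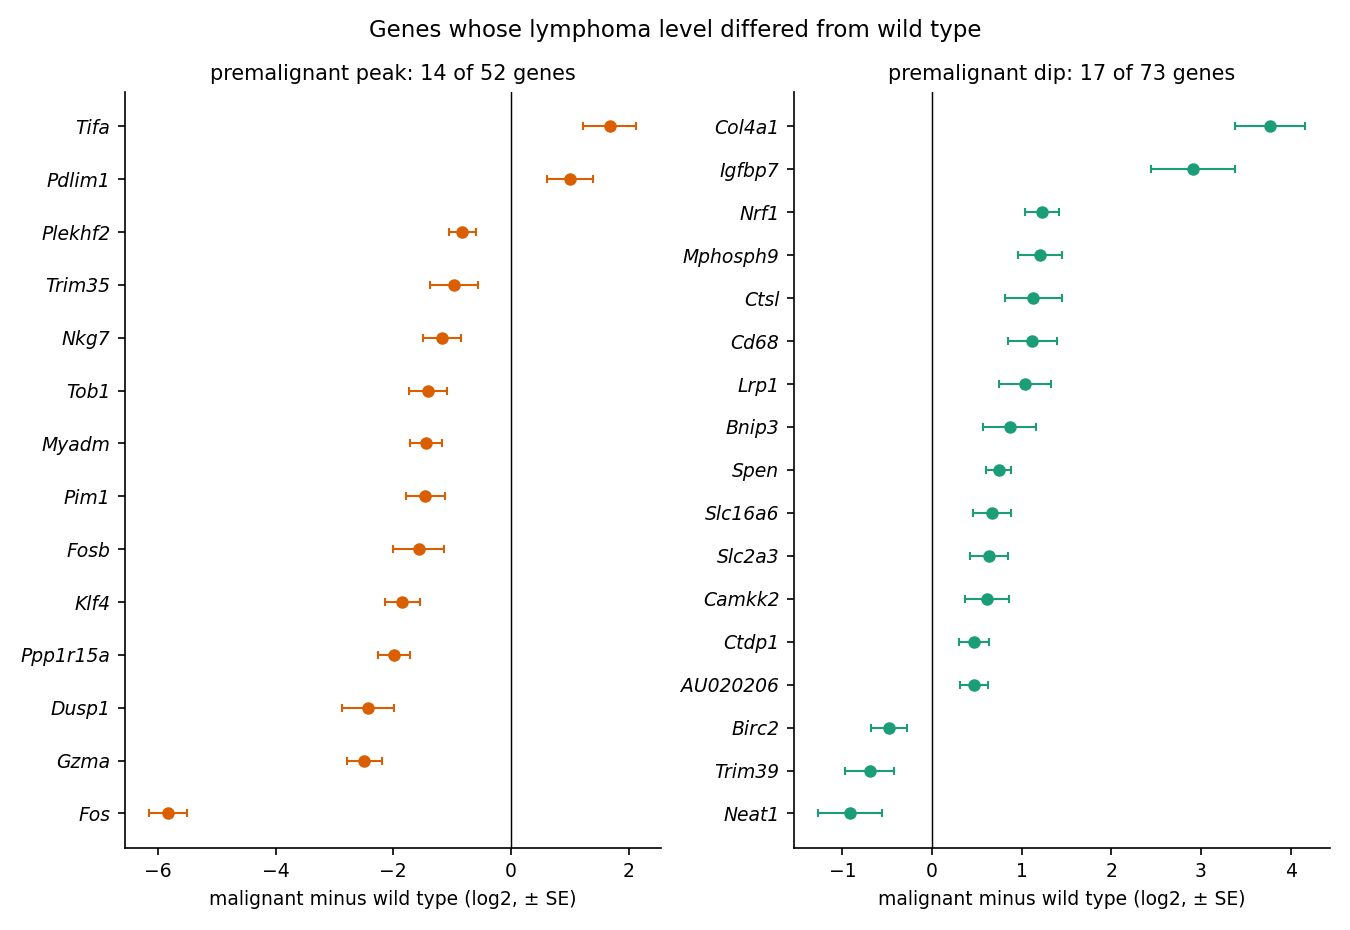
Malignant minus wild type difference of mean log2 intensity for the 14 peak genes (left) and 17 dip genes (right) with a limma adjusted p under 0.05. Points are differences over 13 malignant and 4 wild type arrays, and bars are ± 1 SE. Fos lies lowest at -5.83 and Col4a1 highest at 3.77.

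The lymphoma mean lay within 0.25 log2 units of wild type in 21 of 52 peak genes and 40 of 73 dip genes, and in 22.8% of all tested genes. The second step undid a median of 96.5% of the first in the peak genes (27.8% to 484%) and 117% in the dip genes (36.2% to 736%). These values follow in part from the rule and are given as description only. It chose steps of opposite sign, and both steps share the premalignant mean, so an error in that mean shifts them in opposite ways. The second step undid all of the first or more in 23 peak and 44 dip genes. The means of Ccnd3 (94.8%), Alad (99.0%) and Cetn3 (99.1%) returned nearly to wild type, while those of S100a8 (28.1%) and Tifa (27.8%) kept most of the first step. Among dip genes the means of Ubr4 (99.1%), Tgfbi (101%) and Man2c1 (98.9%) returned, and those of Neat1 (36.2%) and Trim39 (45.8%) did not. A returned mean does not place each lymphoma at the wild type level. Lymphomas ran from 3.78 to 8.46 for Tgfbi and from 6.50 to 8.84 for Ccnd3. The first step of Alad was 0.34 without premalignant replicate 2.

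The spread among lymphomas was wider in the peak genes than in all tested genes by the median. The rule asks for large differences of group means, which genes of wide spread reach more easily, so this is partly built in. The median SD over 13 lymphomas was 0.58 log2 units in the peak genes, 0.39 in the dip genes and 0.33 in all tested genes. The SD exceeded 0.69, the 90th percentile of all genes, in 19 of 52 peak genes and 13 of 73 dip genes. The widest were Xist (4.27), S100a8 (2.59), S100a9 (2.51) and Rag1 (2.44) among the peak genes and Tgfbi (1.57), Ctnna1 (1.20), Slc44a1 (1.09), Basp1 (1.09) and Ets2 (1.08) among the dip genes.

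Other probe sets of the same genes, which did not choose the members but come from the same arrays, turned in part. For 11 peak genes 16 further probe sets were kept, of which 10 moved in the same directions at both steps. Of these, 3 met the rule, 1 each of Xist, Myadm and Psme4. For 24 dip genes 37 further probe sets were kept, of which 23 moved in the same directions and 7 met the rule, 1 each of Ctnna1, Trio, Tgfbi, Tnk2, Zfp329, Safb2 and Dusp7. For Vim both further probe sets moved the same ways, by 0.98 and -0.29 and by 1.24 and -0.36. Where probe sets of a gene disagree, as for Glo1, Nrf1, Col4a1, Pitpnb, Ssr4 and Camkk2, the turn belongs to the brightest probe set. The other probe set of Ssr4 moved by 0.01 and 0.10 and that of Camkk2 by 0.02 and 0.46. A further probe set of Acp2 moved by 0.31 and 0.63, while another moved in the same directions as the brightest without meeting the rule.

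Membership depended on single arrays. Without each of the 9 wild type and premalignant arrays in turn, 28 of 52 peak genes and 26 of 73 dip genes met the rule every time. Among those that did were Fosb, Fos, Dusp1, Klf4, Ppp1r15a, Tob1, Pim1, Rag1, Uchl1, Vim, Ccnd3, S100a8 and S100a9, and Bnip3, Chd8, Chd7, Nrf1, Ctsl, Ctnna1, Trio, Ubr4, Slc2a3, Son and Col4a1. With group means below log2 4 set to 4, 48 peak and 63 dip genes still met it. With arrays centred on the hybridisation spikes, 35 of the 52 and 26 of the 73 still met it. Under that centring the first step of Col4a1 was -0.34, under the limit, and those of Fosb (2.69), Fos (1.78) and Chd8 (-0.56) were not.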

How the data were processed

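Gene expression was measured on 22 arrays, 1 array a sample: 4 of wild type B cells, 5 of premalignant B cells and 13 of lymphomas. The deposited values are intensities that the authors made with GCRMA, per the submitters' processing notes, which corrects background by probe sequence, brings arrays to 1 distribution and gives a single value for each probe set. No source read here names its version. The range of the values shows a linear scale, from which log2 values were computed. GCRMA pulls dim values towards a floor, so differences near it are compressed, and arrays give no counts, so their number limits the precision.

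Of 22690 probe sets, 20380 had 1 symbol in the platform annotation. Those above log2 4 on at least 4 arrays were kept, and each of 6437 genes was read from its brightest probe set on average over all arrays. Some genes, such as Nrf1, Igfbp7 and Bnip3, passed this filter only through lymphomas, which favours a higher lymphoma mean. Folds set group means below log2 4 to that level and are then written as at least N-fold. Lymphomas and wild type cells were compared by a two-sided moderated test (lmFit and eBayes of limma 3.58.1, R 4.3.3) fitted on these 2 groups. The fit takes 1 variance per gene over both groups, to which the 13 lymphomas contribute most. Where lymphomas lie near the floor and wild type arrays spread widely, the p understates the wild type spread. The SDs of Fosb, Klf4, Ppp1r15a, Gzma and Nkg7 were 1.85, 1.23, 1.10, 1.20 and 1.36 in wild type arrays. In malignant arrays they were 0.07, 0.06, 0.15, 0.13 and 0.04. A gene was called where its p, adjusted by Benjamini-Hochberg over the 6437 genes, was under 0.05. On simulated data with 200 genes changed, the comparison recovered 80% of 2-fold and 99% of 4-fold changes and called 44 of 6237 unchanged genes, which were 19.7% of its calls and above the share the threshold is meant to allow. The share of false calls depends on how many genes change. In the data 61.5% of genes were called, so the simulation does not give the share of false calls among those reported. Promoter windows are RefSeq's for GRCm38.p6 and were matched by symbol, for 40 of 52 peak and 61 of 73 dip genes. Summed intensities of marker lists were taken on the linear scale.

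The members, the 32 pathway and 10 cell type lists and the tests were chosen with earlier results of these data known. Of the members, 27 are in a list. Only some of the lists are described, and the chromatin list among them holds 0 members. The lists of ER folding, amino acid supply, BCL2 family, DNA damage and precursor B cell genes hold members but are not described. The same is true of the NF-κB, G protein signalling and kinase lists. The genes named by rule are the 15 members of each direction with the largest smaller step, the members in a list, the 3 genes just inside and outside the limit in each direction, and Myc. Other genes named were chosen after their values were seen. Replicate numbers recur in the groups and were not taken to pair samples. Alternatives were other filters, centrings, probe set summaries, medians, array weights, a replicate block and leaving out arrays. The setting without wild type replicate 2 and premalignant replicate 1 together was added after seeing the data.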

Additional observations from a re-analysis of the deposited data

Results flagged for a closer look

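In groups of 4 to 10 arrays, 1 array stood far from the others of its group in 24 of 250 pairs of a gene and a group, by its gap divided by the group's range (Dixon's ratio at the 95% level). Chance marks about 1 in 20 groups. Only the wild type and premalignant groups have a size in this range. Premalignant replicate 1 and wild type replicate 2 were the array in question 7 times each, more than any other array. Values are log2 intensities.

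Premalignant replicate 1 was low for Tob1 (5.95, others from 7.01 to 7.28), Xist (1.85, others from 9.51 to 10.50), Cd68 (2.92, others from 5.84 to 6.86), Spen (4.12, others from 5.15 to 5.57) and Vps53 (4.30, others from 5.93 to 6.33). It was high for Cdkn2c (8.02, others from 6.30 to 6.67) and Igfbp7 (6.45, others from 2.99 to 3.42). Wild type replicate 2 was low for Stac2 (3.50), Ipo9 (4.15) and Anxa5 (6.08), and high for Cdkn2c (7.01), Rilpl2 (8.88), Col4a1 (4.56) and Birc2 (7.63).

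Premalignant replicate 2 was high for Rgcc (6.16) and LOC664787 (6.23, others from 2.38 to 2.63) and low for Tef (5.12). Wild type replicate 1 was high for Khdc4 (6.31) and Wdr20 (5.79) and low for Lrp1 (3.59). Single cases were Nrf1 in premalignant replicate 5 (2.82), Pde1b in premalignant replicate 3 (3.58), Tef in wild type replicate 3 (6.40) and Itih5 in wild type replicate 4 (3.35).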

How the results depend on the processing

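The 52 peak genes became 34 and the 73 dip genes 45 with the filter at log2 6, and 8 and 0 with steps of at least 1. With arrays centred on the hybridisation spikes the dip genes numbered 41. Without 1 wild type or premalignant array the peak genes numbered 47 to 68 and the dip genes 72 to 120, the highest without premalignant replicate 2. Without wild type replicate 2 and premalignant replicate 1 together there were 57 peak and 74 dip genes, of which 43 and 49 are among those reported. The members below wild type in lymphomas, 15 in all, numbered 8 with spike centring and 9 with a replicate block, and the dip genes among them, 3 in the reported fit, numbered 0 in both and 0 to 2 without 1 wild type array. The peak genes above wild type, 2 in the reported fit, numbered 5 with the mean over probe sets and 1 to 2 without 1 wild type array. The cause of these shifts was not tested, except that a stricter filter or step admits fewer genes by construction. With the replicate block, in 4 shared numbers, Fosb (adjusted p = 0.084), Nkg7 (0.081), Lrp1 (0.066), Slc2a3 (0.058), AU020206 (0.11), Camkk2 (0.12), Birc2 (0.14), Trim39 (0.12), Neat1 (0.18) and Trim35 (0.18) were not called, and over all genes 1592 were higher and 1313 lower. The numbers were not taken to pair the samples, although the values here cannot exclude pairing. With group means taken out, same-numbered arrays correlated by -0.064 to 0.21 between premalignant and wild type groups, with 3 of 4 pairs over 0.1. Between malignant and wild type groups they correlated by -0.080 to 0.066. In these comparisons 0 of 4 and 1 of 4 arrays correlated best with their own number. Spike centring moved the median lymphoma minus wild type difference of all genes to 0.43, against 0.04, and calls to 2349 higher and 788 lower (74.9% higher, against 51.7%). Fosb (0.064), Plekhf2 (0.24), Nkg7 (0.14), Trim35 (0.29), Birc2 (0.82), Trim39 (0.48) and Neat1 (0.34) were then not called. With no filter 2124 genes were higher and 5797 lower (26.8% higher), and Trim35 was not called (0.054). The second step changed sign for Xist by group medians (0.040), for Pitpnb and Glo1 by the mean over probe sets (0.23 and 0.13), and for LOC664787 without premalignant replicate 2 (0.22, where leaving out 1 array gave -0.74 to 0.22). Of the values for single genes under all alternatives, 4882 kept their direction, and where tested their call, 179 moved, 42 lost their call, 18 gained one and 4 changed sign. Signal near the GCRMA floor limits the steps of Fosb, Nrf1, Col4a1, Nkg7 and Capn5, whose means in 1 or more groups lie below log2 4.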

Other observations

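The lymphomas with the most Rag1 shared values of other members. This was noticed after the values were seen, is given for single arrays and was not tested. Malignant replicates 3, 6, 7 and 10 had log2 Rag1 intensities of 8.65, 8.68, 8.97 and 8.09, and the next lymphoma was at 5.93. The same 4 arrays had the highest values of the matrix protein gene Tgfbi, at 7.72, 8.46, 7.88 and 8.02, with the next at 6.51. They also had the highest values of Dusp7, a phosphatase gene of the ERK pathway, at 7.44, 6.65, 6.91 and 6.17, with the next at 5.56. Ets2, a transcription factor gene, was at 3.77, 3.55, 3.89 and 4.08 in these arrays and from 3.61 to 7.06 in the other 9. The choline transporter gene Slc44a1 was at 4.85, 4.47, 5.19 and 4.22 in these arrays and from 4.27 to 7.34 in the others. Tgfbi, Dusp7, Ets2 and Slc44a1 are dip genes, and Rag1 is a peak gene. Xist was high in 3 of the 4 arrays and at 2.69 in malignant replicate 10.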
